A study of Rattus norvegicus with 18 samples.

Results

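Glutathione transferases join the tripeptide glutathione to reactive compounds, which are then trimmed and excreted as mercapturates. The soluble enzymes fall into classes named by Greek letters, and an unrelated family is built into membranes. The classes described here are pi, theta, kappa and microsomal, and they are represented by Gstp1, Gstt1, Gstt2, Gstk1 and Mgst1. In rat liver the bulk of soluble transferase belongs to the alpha and mu classes, and the pi enzyme is known for its low level in normal hepatocytes and its high level in preneoplastic foci. The members are these 5 of the 13337 genes with a named probe on the array, chosen by class and with earlier results of these data known. They have 7 of the 13793 probes that carry a single gene symbol. Each gene is represented by its brightest probe on average, and only Gstp1 has more than 1 probe.

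Liver RNA was taken from 18 Wistar rat pups whose dams had been injected with the brominated flame retardant BDE-47 (2,2',4,4'-tetrabromodiphenyl ether) or with vehicle, and each pup had its own Illumina RatRef-12 array. G1 dams received vehicle only (ethanol, Cremophor EL and water), G2 dams 0.002 mg/kg body weight of BDE-47 in the same vehicle, and G3 dams 0.2 mg/kg. All dams had caudal injections every 5 days, 6 times per dam, between gestational day 15 and postnatal day (PND) 20, and the pups were weaned on PND 21 and killed on PND 27. Each group holds 6 pups from 3 dams, 3 males and 3 females, with 1 pup of each sex from a litter. The labels do not say which pups were litter mates. The dose was given to the dam, so a p-value over 6 pups counts litter mates as separate animals and can be too small. Within 1 sex the 3 pups of a group come from 3 litters.

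Values are the deposited normalized log2 expression levels, which run from 7.61 to 15.73. The array medians lie between 7.84 and 7.85, and 73.6% of probes average within 0.5 of the median probe. Any 2 arrays correlated with r between 0.974 and 0.995 over all probes. The hepatocyte genes Alb, Ttr, Serpina1, Tf and Fgb, which mark the labelled tissue, averaged between 15.35 and 15.53, at the top of the scale. Cps1, the urea cycle enzyme and the sixth hepatocyte gene measured, averaged 13.25, and Apoa1 had no probe that could be named. The liver of G3 replicate 2 stood apart in its skeletal muscle genes: the mean log2 level of 10 of them was 10.47 there, 8.07 in G3 replicate 4, and at most 7.86 in every other pup, G1 and G2 included.

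The 300 bases around the transcription start were in the RefSeq promoter table (rat build GRCr8) for 3 of the 5 members, Gstp1, Gstk1 and Mgst1. They are shown because enzymes of this family are known targets of factors that bind AP-1 sites and antioxidant response elements. Each runs from 250 bases before the start to 50 after it, 5′ to 3′ on the gene's strand. Capitals mark matches, on either strand, to the AP-1 letters TGANTCA, the antioxidant response element core TGACNNNGC and the GC box GGGCGG.
Gstp1, chr1:210769656-210769955, minus strand: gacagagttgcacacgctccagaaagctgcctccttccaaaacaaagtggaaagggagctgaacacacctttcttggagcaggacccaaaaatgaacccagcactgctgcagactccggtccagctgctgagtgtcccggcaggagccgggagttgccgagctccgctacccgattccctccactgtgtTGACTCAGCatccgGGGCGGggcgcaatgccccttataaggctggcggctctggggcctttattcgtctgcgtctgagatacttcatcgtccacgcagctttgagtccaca
Gstk1, chr4:72085364-72085663, plus strand: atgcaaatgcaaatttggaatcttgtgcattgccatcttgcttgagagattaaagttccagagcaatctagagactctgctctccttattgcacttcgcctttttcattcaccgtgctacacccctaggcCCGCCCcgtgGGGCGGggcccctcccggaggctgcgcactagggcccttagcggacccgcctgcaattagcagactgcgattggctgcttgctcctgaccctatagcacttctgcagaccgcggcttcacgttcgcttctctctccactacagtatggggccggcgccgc
Mgst1, chr4:172760680-172760979, plus strand: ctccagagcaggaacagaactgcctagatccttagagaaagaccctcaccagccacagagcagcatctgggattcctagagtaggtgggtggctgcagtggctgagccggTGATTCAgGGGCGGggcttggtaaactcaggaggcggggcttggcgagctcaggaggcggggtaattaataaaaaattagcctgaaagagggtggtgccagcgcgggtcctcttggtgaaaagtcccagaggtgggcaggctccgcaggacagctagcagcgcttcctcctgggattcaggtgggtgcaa
In the Gstp1 window the AP-1 letters and the response element core overlap in a single run that begins 61 bases before the start, and a GC box follows at 47 bases. The Mgst1 window has AP-1 letters 140 bases before the start and a GC box beside them at 132. The Gstk1 window has GC boxes at 120 and 110 bases, the first on the minus strand, and neither of the other 2 motifs. Among all 27457 promoter windows 7.33% held the AP-1 letters, 12.2% the response element core and 34.9% a GC box. These matches describe the letters in the windows and not the binding of any factor. Gstt1 and Gstt2 lie in the same cluster of the rat genome, with Gstt4 and Gstt3.

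Of the 5 genes Gstt2 differed most clearly between the groups. It was higher in every exposed pup than in any vehicle pup, by 1.31-fold at the higher dose, and it passed an F-test over the 3 groups, a call that was lost when most single pups were left out. Gstk1 was lower on average at both doses, Gstp1 was far above the rest in a single G3 pup, and Gstt1 and Mgst1 differed by less than the spread between pups. In the comparisons of 2 groups no member passed an adjusted p of 0.05 (limma, Benjamini-Hochberg over all 22523 probes), and none reached a 2-fold difference. That threshold was passed by 0.0799% of all probes in G3 against G1, 0.0133% in G2 against G1 and 0.0178% in G3 against G2.

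**Figure D1:**
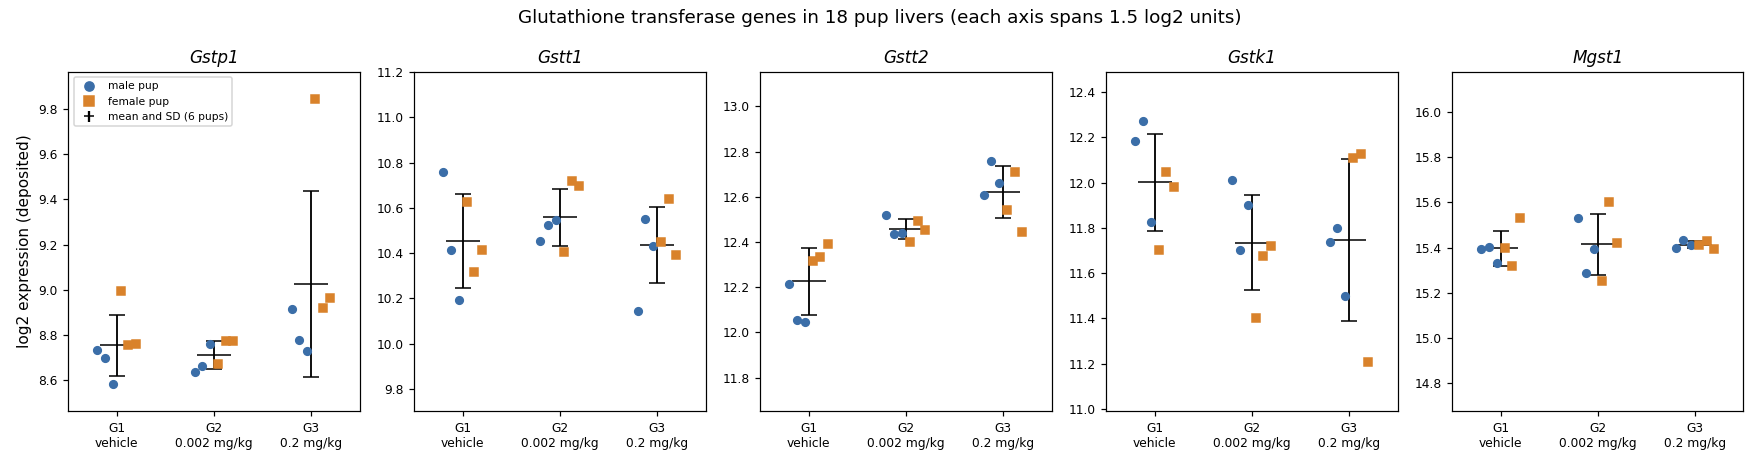
Log2 expression of the 5 transferase genes (vertical axes) in each pup, by exposure group (horizontal axis), with circles for males, squares for females, and bars for the mean and SD of 6 pups. All exposed pups lie above the vehicle pups for Gstt2, and a single female of G3 stands apart for Gstp1 at 9.84.

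At an unadjusted p of 0.05, 1 of the 5 members (20%) passed in G3 against G1, where 18.6% of all probes did. In G2 against G1 the count was 2 of 5, against a background of 9.98%, and in G3 against G2 it was 1 of 5, against 9.47%. The comparisons of G3 and of G2 with G1 share the same 6 vehicle pups. In each of the 3 comparisons 3 members were higher and 2 were lower. The median difference of the 5 was 0.02 in G3 against G1, 0.02 in G2 against G1 and 0.01 in G3 against G2, where the medians of all genes were -0.003, -0.002 and 0.001. In bulk liver RNA a change in the number of cells of a type and a change of RNA per cell cannot be told apart.

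No cell type marker passed the adjusted p in any comparison, but some had an unadjusted p of at most 0.05. In G2 against G1 all 7 measured erythroid genes of 8 listed were lower, 5 of them at that unadjusted threshold, which 9.98% of all probes passed. Among the 5 were Hbb, a beta globin gene (-0.35, adjusted p = 0.486 from limma), and Ahsp, the alpha haemoglobin stabilizing protein (-0.73, adjusted p = 0.484). The mean level of the 7 ran from 9.18 to 9.61 in G1, 9.002 to 9.28 in G2 and 9.15 to 9.40 in G3, with 5 of the 7, Klf1 and Gata1 included, within 0.5 of the median probe. In G3 against G1 no erythroid gene had an unadjusted p of at most 0.05. Of the 6 measured hepatocyte genes 3 were higher and 3 were lower in that comparison. Only Cps1, higher by 0.78 (adjusted p = 0.269 from limma), had an unadjusted p of at most 0.05. The other hepatocyte genes differed by between -0.12 (Ttr) and 0.06 (Serpina1). Of 10 listed Kupffer cell and leukocyte genes 6 were measured, and in G3 against G1 3 were higher and 3 were lower. At the unadjusted threshold, which 18.6% of all probes passed, 2 were higher and none was lower. These were Vsig4 by 0.69 (adjusted p = 0.138 from limma) and Ptprc, near the median probe, by 0.11 (adjusted p = 0.133). The 3 lower genes were C1qa (-0.17), Marco (-0.08) and Cd163 (-0.006). The mean of the list ran from 9.37 to 9.78 in G1, 9.39 to 9.85 in G2 and 9.34 to 10.10 in G3. The part of these cells in the transferase levels was not tested.

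Gstt2 encodes a theta-class transferase, one of the soluble enzymes that act on small electrophiles and organic sulfates. Its log2 level in G1 had a lowest value of 12.05, a median of 12.27 and a highest value of 12.39. In G2 these were 12.40, 12.45 and 12.52. In G3 they were 12.45, 12.63 and 12.76. The lowest exposed pup, a G2 female at 12.40, was just above the highest vehicle pup, a female at 12.39, and the groups G3 and G2 overlapped through a single G3 female at 12.45.

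The group means of Gstt2 were 12.23 ± 0.15 in G1, 12.46 ± 0.04 in G2 and 12.62 ± 0.11 in G3 (SD, n = 6 each). In G3 against G1 the difference was 0.39 (SE 0.07, 95% confidence interval 0.24 to 0.55), or 1.31-fold (1.18 to 1.47), with an unadjusted p of 0.000172 and an adjusted p of 0.0584 from limma. The gene ranked 55 by p among all probes and did not pass. An exact two-sided permutation test of 6 pups against 6 gave p = 0.00216. This is the smallest value that test can give, and it counts litter mates as separate animals. The complete separation of G3 from G1 was shared by 1.95% of all probes, and Gstt2 was the only member that had it.

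At the lower dose Gstt2 was higher in G2 than in G1 by 0.23 (SE 0.06, 95% confidence interval 0.10 to 0.36), or 1.17-fold, and all 6 pups were again above the vehicle range. The exact permutation p was 0.00216, and limma gave an unadjusted p of 0.00241 and an adjusted p of 0.419. Complete separation of G2 from G1 was found for 0.448% of probes. In G3 against G2 the difference was 0.16 (SE 0.05, 95% confidence interval 0.06 to 0.27), with 5 of 6 G3 pups above the highest G2 pup, an exact permutation p of 0.0108 and an adjusted p of 0.352 from limma. No member was separated completely in that comparison, as 0.608% of probes were. The means thus followed the dose, and the step between the vehicle and the lower dose was larger than the step between the doses, a difference between the steps that was not tested.

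The 12 exposed pups were all above the 6 vehicle pups for Gstt2, a pattern that 29 probes showed in either direction (0.129%), 13 of them higher and 16 lower. Over the 3 groups the F-test gave an unadjusted p of 3.24e-05 and an adjusted p of 0.0347 (limma), rank 21 of the 42 probes that passed (0.186%). The adjusted p of the other members in the same F-test were 0.358 for Gstp1, 0.471 for Gstk1, 0.692 for Gstt1 and 0.971 for Mgst1. With each of the 18 pups left out in turn the adjusted p of Gstt2 ran from 0.00794 to 0.0776. It was above 0.05 in 12 of the 18, namely without G1 replicates 1, 2 and 5, without G2 replicates 1, 2, 3 and 6, and without G3 replicates 1 to 5.

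**Figure D2:**
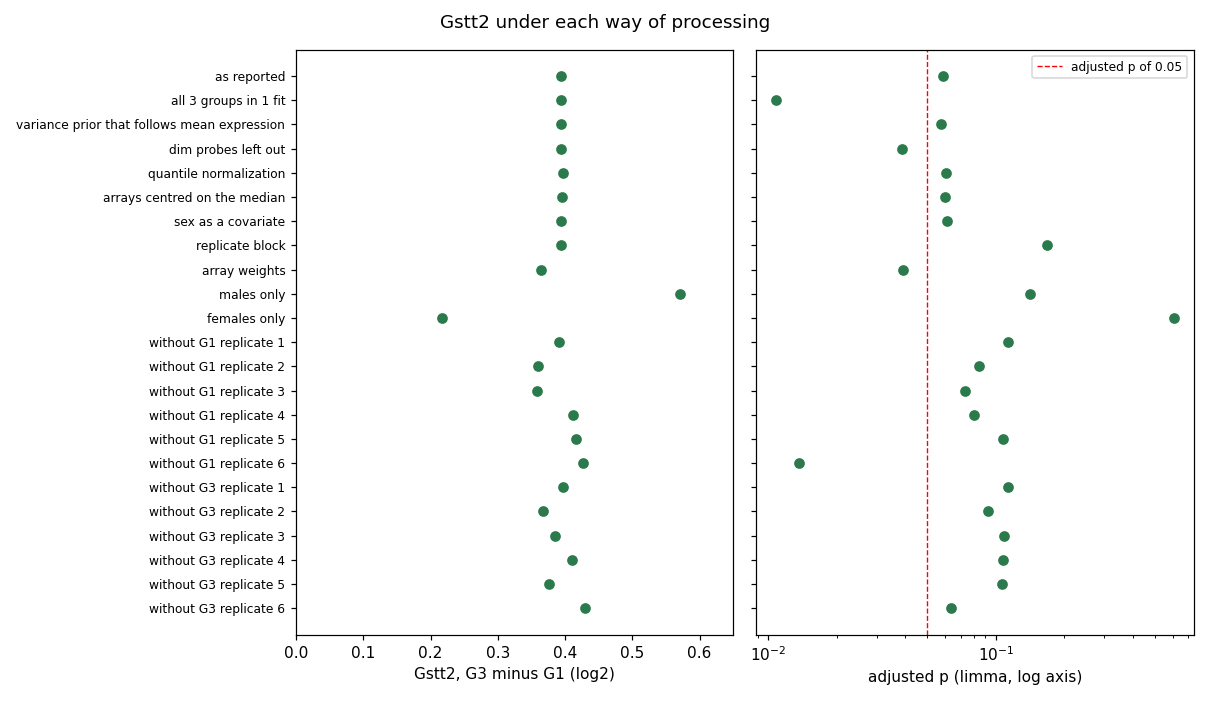
Left, the difference in Gstt2 between G3 and G1 on the log2 scale; right, its adjusted p on a log axis, with the line at 0.05; each row is 1 way of processing or 1 pup left out. The difference stayed between 0.22 and 0.57, and the adjusted p lay to the left of the line in 4 of the 22 alternatives.

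The difference in Gstt2 between G3 and G1 passed the adjusted p in 4 alternatives. These were the fit of all 3 groups together (adjusted p = 0.0108, with 475 probes passing), the fit without the probes that averaged below the median probe at 7.84 (0.0386, 380 probes of 11262), array weights (0.0390, 465 probes) and the fit without G1 replicate 6 (0.0136, 1434 probes). G1 replicate 6 had the highest Gstt2 level of G1, and without it the difference was 0.43. Without G3 replicate 6 the difference was also 0.43, but Gstt2 did not pass (adjusted p = 0.0634 from limma, 32 probes passing). Why the call depended on the pup left out was not tested. Over all alternatives the adjusted p from limma ran between 0.0108 and 0.605, the last in females alone. Without G3 replicate 2, the liver with muscle genes, the difference was 0.37.

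Gstt2 was examined in each sex because the 3 pups of a sex came from 3 litters. In males the difference was 0.57 between G3 and G1 and 0.36 between G2 and G1, and in females it was 0.22 and 0.10. The groups did not overlap in any of these 4 comparisons, each with an exact permutation p of 0.1, the smallest that 3 pups against 3 can give. This follows from the separation of all exposed pups from all vehicle pups, so it adds no further evidence. The males and females of a group also came from the same litters. G3 males lay between 12.61 and 12.76 and vehicle males between 12.05 and 12.21, and G3 females lay between 12.45 and 12.71 and vehicle females between 12.32 and 12.39. Among the vehicle pups the females were thus all above the males. The female effect minus the male effect was -0.35 for G3 (adjusted p = 0.882 from limma, unadjusted 0.00149) and -0.26 for G2 (adjusted p = 1.000, unadjusted 0.0111). Those contrasts had an unadjusted p of at most 0.05 in 4.16% and 3.92% of probes, and Gstt2 was the only member among them. Neither contrast of Gstt2 passed the adjusted p, so a difference in effect between the sexes was not established.

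**Figure D3:**
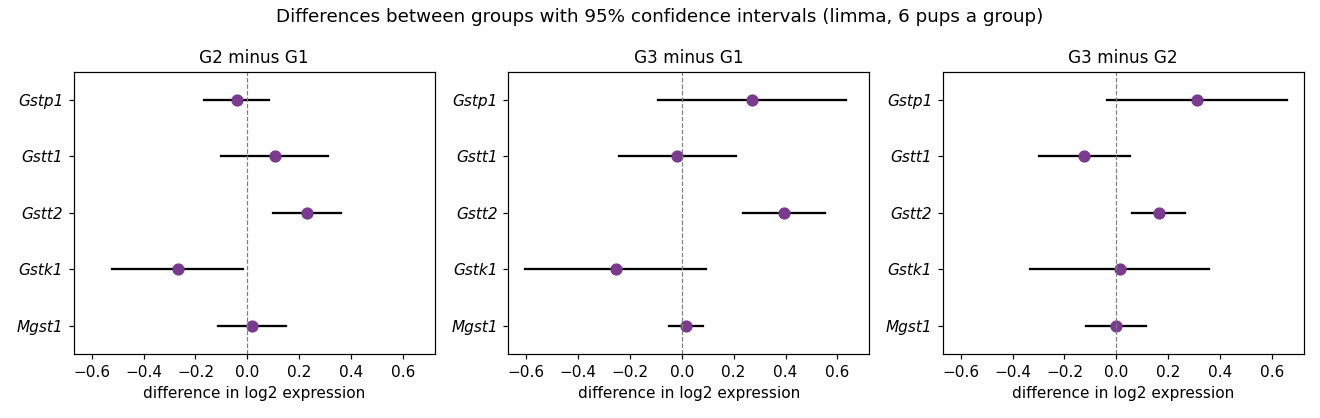
Differences in log2 expression (horizontal axis) of the 5 genes in G2 against G1, G3 against G1 and G3 against G2; dots are estimates and lines 95% confidence intervals from limma with 6 pups a group. The intervals of Gstt2 lie above 0 in all 3 comparisons, that of Gstk1 lies below 0 in G2 against G1, and the others include 0.

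Gstt1, the other theta-class member measured well above the median probe, conjugates small halogenated compounds such as dichloromethane. Its level in G1 was 10.19 at the lowest, 10.41 at the median and 10.76 at the highest. In G2 it was 10.41, 10.54 and 10.72, and in G3 it was 10.14, 10.44 and 10.64. The 3 groups overlapped widely, and the highest and the lowest pups belonged to G1 and G3. Gstt1 averaged 10.44 ± 0.17 in G3 and 10.45 ± 0.21 in G1 (SD, n = 6 each), a difference of -0.02 (SE 0.10, 95% confidence interval -0.24 to 0.21, adjusted p = 0.951 from limma, exact permutation p = 0.881). In G2 against G1 the difference was 0.11 (SE 0.09, 95% confidence interval -0.10 to 0.31, adjusted p = 0.722), and in G3 against G2 it was -0.12 (SE 0.08, adjusted p = 0.674).

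The levels of the 2 theta genes correlated with r = 0.16 over the 18 arrays. Gstt3, another gene of the cluster, was measured at 7.77 ± 0.02 in G1, 7.81 ± 0.03 in G2 and 7.81 ± 0.04 in G3 (SD, n = 6 each), close to the median probe, so little can be read from it (adjusted p = 0.333 in G3 against G1 and 0.486 in G2 against G1, limma). Gstt4 had no probe that could be named. Gstt3 is named here for its class, after its values were seen.

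Gstk1 encodes the kappa-class transferase, an enzyme of mitochondria and peroxisomes whose fold is related to bacterial disulfide oxidoreductases. In G1 its level was 11.70 at the lowest, 12.01 at the median and 12.27 at the highest. In G2 it was 11.40, 11.71 and 12.01, and in G3 it was 11.21, 11.77 and 12.13. All 6 G2 pups were below the G1 median and 3 were below the lowest G1 pup. In G3 the pups were spread more widely, with the females of replicates 4 and 5 at 12.11 and 12.13 and the female of replicate 6 at 11.21.

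Gstk1 averaged 11.73 ± 0.21 in G2 and 12.00 ± 0.21 in G1 (SD, n = 6 each), a difference of -0.27 (SE 0.12, 95% confidence interval -0.52 to -0.02). This had an unadjusted p of 0.0393 and an adjusted p of 0.49 from limma, and the exact permutation p was 0.0606. In G3 the mean was 11.75 ± 0.36, a difference from G1 of -0.26 (SE 0.16, 95% confidence interval -0.61 to 0.09, adjusted p = 0.423 from limma, exact permutation p = 0.167), and without G3 replicate 6 it was -0.15. The males of G3 lay at 11.50 to 11.80, below the vehicle males at 11.83 to 12.27, a difference of -0.42 (exact permutation p = 0.1, the smallest possible), and in females the difference was -0.09 with overlap. Between G3 and G2 the difference was 0.01 (SE 0.16, adjusted p = 0.990).

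Gstp1 encodes the pi-class transferase, which in adult rat liver is chiefly a protein of bile duct cells. Its brightest probe, ILMN_1376479, gave 8.58 at the lowest, 8.74 at the median and 8.996 at the highest in G1. In G2 it gave 8.64, 8.72 and 8.77, and in G3 8.73, 8.92 and 9.84. The 9.84 belonged to a single female, G3 replicate 4, and the other 5 G3 pups ended at 8.96, within the range of G1. The level is in the lower part of the scale, where 80.6% of probes were dimmer.

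With this pup included Gstp1 averaged 9.03 ± 0.41 in G3 and 8.75 ± 0.13 in G1 (SD, n = 6 each), a difference of 0.27 (SE 0.17, 95% confidence interval -0.09 to 0.63, adjusted p = 0.415 from limma, exact permutation p = 0.108). Without G3 replicate 4 the difference was 0.11. In G2, at 8.71 ± 0.06, the difference from G1 was -0.04 (SE 0.06, adjusted p = 0.844). In G3 against G2 it was 0.31 (SE 0.16, adjusted p = 0.578), and 0.15 without G3 replicate 4. There 5 of 6 G3 pups were above the highest G2 pup, with an exact permutation p of 0.0152, which stood beside an unadjusted p of 0.0740 from limma.

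The second Gstp1 probe, ILMN_1366294, differed in sign from the brightest probe in G3 against G1 only. It averaged 8.69 ± 0.23 in G1, 8.41 ± 0.14 in G2 and 8.55 ± 0.15 in G3 (SD, n = 6 each). The difference was -0.14 in G3 against G1 (adjusted p = 0.522), opposite in sign to the brightest probe, and -0.27 in G2 against G1 (SE 0.10, unadjusted p = 0.0217, adjusted p = 0.486 from limma, exact permutation p = 0.0303). In G3 against G2 it was 0.13 (adjusted p = 0.643 from limma). G3 replicate 4 was the highest pup of G3 on this probe too, at 8.85, but 2 vehicle males were higher. The third probe, ILMN_1530215, stayed between 7.72 and 7.83, dimmer than the median probe, in all 18 pups. The first and second probes correlated with r = 0.40 over 18 arrays, and with r = 0.16 over 17 without G3 replicate 4. RefSeq lists a neighbouring Gstp3 and several Gstp1 pseudogenes in the rat, and the share of signal that such copies might contribute to each probe was not tested.

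**Figure D4:**
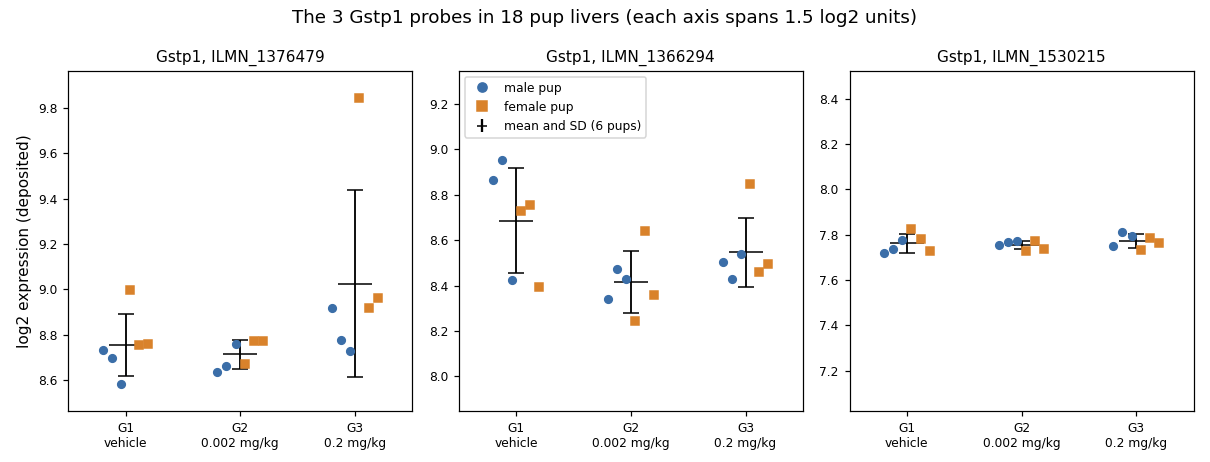
Log2 expression (vertical axes) of the 3 Gstp1 probes in each pup, by exposure group (horizontal axis), with circles for males, squares for females, and bars for the mean and SD of 6 pups. G3 replicate 4 stands apart on the first probe at 9.84 and is the highest G3 pup on the second at 8.85, and the third probe is flat near the median probe.

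Because Gstp1 is carried by bile duct cells, the cholangiocyte markers were read in the same pups. Of 7 markers 4 had a named probe, and Krt7 and Spp1 averaged within 0.5 of the median probe. The mean level of the 4 was 8.37 to 8.92 in G1, 8.47 to 8.81 in G2 and 8.56 to 8.91 in G3. The pup with the highest mean, G1 replicate 1, had a Gstp1 level of 8.73. G3 replicate 4 had the highest mean of G3 and the highest G3 values of Krt19 (9.26), Epcam (10.03) and Spp1 (8.50), all below the highest value of another group, at 9.39 and 10.13 in G1 for the first 2 and 8.55 in G2 for Spp1. Krt7 was 7.85 in that pup and at most 7.90 in G3. The same pup had the second highest muscle gene mean, at 8.07, whereas the liver with the most muscle RNA, G3 replicate 2, had a Gstp1 level of 8.78. The part of bile duct cells or muscle in the Gstp1 level of G3 replicate 4 was not tested.

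Mgst1 encodes the microsomal transferase, a membrane enzyme of the endoplasmic reticulum and outer mitochondrial membrane that also reduces lipid hydroperoxides. Its probe was among the 32 brightest on every array. Its level was 15.32 at the lowest, 15.40 at the median and 15.53 at the highest in G1. In G2 it was 15.25, 15.41 and 15.60, and in G3 15.39, 15.41 and 15.43. The G3 pups thus lay within a narrow band inside the ranges of G1 and G2. Mgst1 averaged 15.41 ± 0.02 in G3 and 15.40 ± 0.08 in G1 (SD, n = 6 each), a difference of 0.02 (SE 0.03, 95% confidence interval -0.05 to 0.08, adjusted p = 0.823 from limma). In G2, at 15.41 ± 0.14, the difference from G1 was 0.02 (SE 0.06, 95% confidence interval -0.11 to 0.15, adjusted p = 0.946), and G3 against G2 gave -0.002 (SE 0.05, 95% confidence interval -0.12 to 0.11). Over all ranks, values of the same rank had a median SD of 0.002 across the arrays and a largest SD of 0.079. The highest value of an array ran from 15.45 in G3 replicate 3 to 15.73 in G2 replicate 1. How far the normalization lets a difference show at the top of the scale was not tested.

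Between the sexes, with the exposure groups as a covariate, no member passed an adjusted p of 0.05, and none had an unadjusted p of at most 0.05, as 5.06% of probes did. Gstp1 came nearest, at 8.94 ± 0.36 in females and 8.72 ± 0.10 in males (SD, n = 9 each), a difference of 0.22 (adjusted p = 0.899 from limma, unadjusted 0.0532) that includes G3 replicate 4. For Gstt1, Gstt2, Gstk1 and Mgst1 the differences were 0.07, 0.04, -0.11 and 0.02, with adjusted p between 0.926 and 0.962. In the vehicle pups alone Gstt2 was higher in females by 0.24 (adjusted p = 0.964 from limma, unadjusted 0.00542).

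The 5 genes did not move as a group over the 18 arrays. The highest correlation between 2 members was r = 0.34, between Gstt1 and Mgst1, and the lowest was -0.25, between Gstt2 and Gstk1. By Spearman rank correlation the highest was rho = 0.50, between Gstt2 and Mgst1, and the lowest was -0.19, between Gstt2 and Gstk1. Among the other genes the most like Gstt2 was Eps8l2, an adaptor of growth factor signalling to the cytoskeleton, with r = 0.94 and rho = 0.91 over 18 arrays. It was followed by Plpp2, a lipid phosphatase (r = 0.88), and Notum, a secreted inhibitor of Wnt signalling (r = 0.87). These points share the 3 exposure groups. As deviations from the group means the correlations were 0.81, 0.67 and 0.61, and Eps8l2 kept the first place. They are the highest of 13336 genes by choice, so they describe the pattern and carry no test.

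For the other members the likeness was lower or rested on few pups. Gstt1 was most like Kxd1 (r = 0.77), the alpha-class transferase gene Gsta5 (r = 0.73) and Napepld (r = 0.72). Gstk1 was most like Or52n1 (r = 0.78), Appbp2 (r = 0.76) and Ccn2 (r = 0.75). Gstp1 was most like Prkar2a (r = 0.84), Or2d3c (r = 0.83) and Bex2 (r = 0.82), and without the 2 pups farthest from its median, G3 replicate 4 and G1 replicate 4, these were 0.33, 0.34 and 0.30. Mgst1 was most like Krtap9-1 (r = 0.82), Rab11fip1 (r = 0.81) and Vom2r30 (r = 0.79), whose probes averaged between 7.77 and 7.90. Those probes and the ones of Prkar2a, Or2d3c, Bex2, Or52n1 and Napepld averaged close to the median probe.

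The rest of glutathione metabolism was read as 6 lists. In G3 against G1 only Acy3 passed the adjusted p. Of the alpha and mu transferases 12 of 13 genes were measured, and none passed, while 4 were higher and 1 was lower at an unadjusted p of 0.05, with a median difference of 0.07. Gsta2 averaged 13.59 ± 0.11 in G3 and 12.52 ± 0.53 in G1 (difference 1.07, SE 0.21, adjusted p = 0.0584, limma), and Gstm2 11.36 ± 0.60 in G3 and 10.40 ± 0.20 in G1 (difference 0.96, SE 0.24, adjusted p = 0.0847; SD, n = 6 each). Gstm3, near the median probe, differed by -0.10 (adjusted p = 0.154). The median difference over all 13337 genes was -0.003, and at the unadjusted threshold 1336 genes were higher and 1453 were lower.

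Of the other soluble and membrane transferases 11 of 14 were measured, none passed, and 3 were higher and 1 was lower at the unadjusted threshold, with a median of 0.04. Gsto1, the omega-class enzyme that reduces dehydroascorbate, averaged 12.97 ± 0.09 in G3 and 12.58 ± 0.20 in G1 (SD, n = 6 each), a difference of 0.39 (SE 0.08, adjusted p = 0.0645, limma). Ptges2, a prostaglandin E synthase, differed by 0.18 (adjusted p = 0.212), and Gdap1, a transferase-like protein of the outer mitochondrial membrane, by -0.04 at a level near the median probe (adjusted p = 0.125). The microsomal relative Mgst2 differed by 0.16 (adjusted p = 0.274), a gene named here for its class after its value was seen.

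Genes of glutathione synthesis and recycling, 11 of 15 measured, had 3 higher and 1 lower at the unadjusted threshold and a median difference of 0.06 in G3 against G1. Gsr, glutathione reductase, differed by 0.49 (SE 0.14, adjusted p = 0.115, limma), Ggct, which breaks down gamma-glutamyl dipeptides, by 0.29 (SE 0.08, adjusted p = 0.105), and Ggt7 by -0.08 near the median probe (adjusted p = 0.0815). None passed. All 14 glutathione peroxidases, reductants and glyoxalases were measured, with 1 higher, 1 lower and a median of -0.01. Hagh, glyoxalase II, differed by 0.43 (SE 0.13, adjusted p = 0.121), the lipid hydroperoxide reductase Gpx4 by -0.14 (adjusted p = 0.250) and the mitochondrial glutaredoxin Glrx2 by -0.19 (adjusted p = 0.287).

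Of the genes that form mercapturates or act on them or their precursors, 10 of 12 were measured. At the unadjusted threshold 2 were higher and 1 was lower, with a median of 0.02. Acy3, an aminoacylase that removes the acetyl group from mercapturates, rose: it averaged 11.07 ± 0.18 in G3 and 10.27 ± 0.26 in G1 (SD, n = 6 each), a difference of 0.80 (SE 0.12, adjusted p = 0.0477 from limma). With each of the 12 pups left out in turn its adjusted p ran from 0.00991 to 0.113, and it passed in 3 of 12, without G1 replicate 4, without G1 replicate 6 and without G3 replicate 6. Kyat1, a cysteine conjugate beta-lyase, differed by -0.23 (SE 0.06, adjusted p = 0.0851) and Acy1 by 0.40 (SE 0.15, adjusted p = 0.196). Of the exporters of conjugates 6 of 9 were measured and none had an unadjusted p of at most 0.05. Their median was -0.05, with Abcc6 at 0.28 (adjusted p = 0.283), Abcc3 at -0.24 (0.396) and Abcc1, near the median probe, at 0.02 (0.477). Without G1 replicate 6, when 1434 probes passed, Gsta2, Gstm2, Gsto1, Ptges2, Ggt7, Ggct, Gsr, Hagh and Acy1 passed as well as Acy3 (adjusted p between 0.00904 and 0.0473 from limma), and with any other single pup left out none of those 9 did.

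In G2 against G1 no gene of the 6 lists passed the adjusted p, and 656 genes of all were higher and 849 were lower at the unadjusted threshold. The alpha and mu list had 4 higher and 1 lower (median 0.10) and synthesis and recycling 3 higher and 1 lower (median 0.15). The other transferases had 1 higher, the peroxidase list 1 lower, the mercapturate list 1 higher and the exporters 1 lower, with medians between -0.03 and 0.01. Gsta2 averaged 13.49 ± 0.44 in G2, a difference from G1 of 0.97 (adjusted p = 0.435), and Gstm2 11.03 ± 0.25, a difference of 0.63 (adjusted p = 0.302, limma). In G3 against G2 no gene of the lists passed. At the unadjusted threshold 11 were higher and 1 was lower, over lists of 12, 11, 11, 14, 10 and 6 measured genes. Of all 13337 genes 666 were higher and 705 were lower. Acy3 was among the 11 higher list genes, with a difference of 0.61 (adjusted p = 0.156 from limma).

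**Figure D5:**
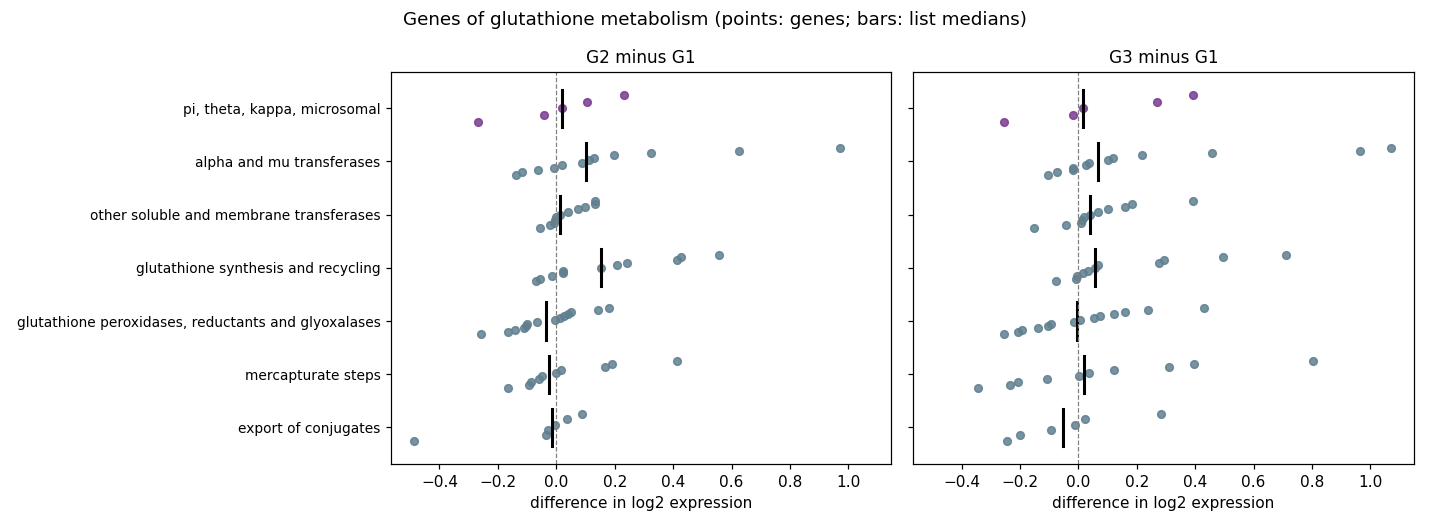
Differences in log2 expression (horizontal axis) in G2 against G1 (left) and G3 against G1 (right), with a point for each gene, a bar at the median of each list, and lists down the page. The 5 genes described here, at the top, spread between -0.26 and 0.39 in G3 against G1, and Gsta2 and Gstm2 of the alpha and mu list lie farthest to the right at 1.07 and 0.96.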

How the data were processed

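Liver RNA of 18 pups was hybridized to 1 single-colour array each. The deposited table holds normalized log2 expression of 22523 probes, which the authors made with lumi; the sources used here give neither its version nor its normalization method, and no detection p was in the table. The values were used as deposited. Probes were named from the platform annotation, updated through RefSeq (GRCr8), which held 13752 of the 13793 probes with a single symbol.

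Groups were compared 2 at a time in R 4.3.3 with limma 3.58.1 (lmFit, eBayes, two-sided, sexes pooled), with p adjusted by Benjamini-Hochberg over all probes and a call at 0.05, and by exact permutation of single genes. The F-test, the sexes and the interaction used all arrays. All adjusted p-values are from limma. The scripts were tested on simulated data. The number of arrays limits the precision.

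Members and lists were chosen with earlier results of these data known. Named are all members, the 3 genes of smallest p in G3 against G1 from each list, and the 3 genes most like each member. Pups of different groups with the same replicate number deviated from their group means with r between -0.34 and 0.23 (over 0.1 in 2 of 18 pairs). With different numbers r ran from -0.36 to 0.36 (over 0.1 in 28 of 90 pairs). No pairing by number showed, and the main fits used none. The check compares pups between groups, so it cannot see litter mates within a group. Alternatives are given with the results below. Array weights used statmod 1.5.0.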

Additional observations from a re-analysis of the deposited data

Results flagged for a closer look

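G3 replicate 4, a female of the higher dose, was far from the other pups of its group for Gstp1. On the brightest probe it was at 9.844, with a gap to the next pup of 0.79 of the whole range of the group. On the second probe it was at 8.848, with a gap of 0.737 of the range. Both gaps pass Dixon's critical value at the 95% level for 6 samples. Of 21 sets of a member's probe and a group 2 were marked, and chance marks about 1 in 20.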

How the results depend on the processing

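The difference of Gstt2 between G3 and G1 kept its direction in all 22 alternatives and passed an adjusted p of 0.05 in 4, at 0.39 in the fit of all 3 groups and without dim probes, at 0.36 with array weights, and between 0.36 and 0.43 with a pup left out (passed without G1 replicate 6). The count of members called in G3 against G1 was then 1, and 0 to 1 with pups left out. By unadjusted p it was 1, and 2 in G2 against G1 and 1 in G3 against G2. For the F-test of Gstt2, whose alternatives were chosen after seeing the data, the adjusted p was 0.0646 with a variance prior tied to mean expression, 0.117 in males, 0.759 in females and 0.00794 to 0.0776 with a pup left out; the cause was not tested. With the replicate block the F-test of Gstt2 gave 0.114 and the difference of Gstt2 between G3 and G1 an adjusted p of 0.168; the block changed no other call of a member. Over all probes 18 were called in G3 against G1, 3 in G2 against G1 and 4 in G3 against G2, against 0 in each with the replicate block. The other alternatives of the pairwise fits called between 0 and 475, 0 and 8, and 1 and 11, and 0 to 1434, 0 to 4, and 1 to 6 with a pup left out.

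Differences that turned sign had no call under any setting. In females alone Gstt1 was 0.0424 and Mgst1 -0.0039 in G3 against G1, and in the control pups Gstt1 was -0.0025 in females against males. In males alone Gstp1 was 0.0153 in G2 against G1, and Gstk1 -0.19 and Mgst1 0.0097 in G3 against G2. Quantile normalization gave Mgst1 -0.0156 in G2 against G1 and 0.0627 in G3 against G2, and array weights gave Gstk1 -0.0378 in G3 against G2. The second Gstp1 probe gave -0.14 in G3 against G1. With a pup left out Gstt1 ran from -0.0702 to 0.0434 in G3 against G1, Gstp1 from -0.0753 to 0.0070 and Mgst1 from -0.0195 to 0.0505 in G2 against G1, and Gstk1 from -0.0636 to 0.121 and Mgst1 from -0.0342 to 0.0358 in G3 against G2. The table gave no detection calls or background values, so dim probes were set by their mean alone, below that of the median probe (7.84).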
